A study of Mus musculus with 14 samples.

Results

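The matrix metalloproteases (Mmp), the secreted Adamts proteases and the Timps, their inhibitors, were examined in C2C12 cells, a line of mouse myoblasts able to fuse to myotubes. Members were taken by gene symbol alone, Mmp or Adamts followed by a number or Timp1 to Timp4, which gave 46 of the 24016 transcripts in the deposited table. These were 23 Mmp genes, 19 Adamts genes and 4 Timps. Poly(A) RNA had been sequenced from cells given control siRNA (siCtrl) or a pool of Klf5 siRNAs (siKlf5) and kept for 0, 1, 2 or 3 days in differentiation medium with horse serum. There was 1 library for each siRNA and day, 8 in all, so a ratio between 2 libraries carries no replicate error. All libraries came from the same line and all cells were transfected, so the control cells had received siRNA too. The line was bought from a repository and, per the study's methods, was not authenticated. The ChIP-seq samples were not analysed here.

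The Mmps and the Adamts proteases are zinc enzymes that cut collagens, proteoglycans and other proteins of the extracellular matrix. Most are made as inactive precursors, and Timps bind their active sites. Myoblasts use them to move, to remodel the matrix around them and to fuse, and in damaged muscle they take part in repair.

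Levels are FPKM as deposited, that is, reads per length of transcript and per library total. They are scaled to a larger library constant than is usual, so they can be compared between genes and libraries of this table only. Reads recovered from these levels, which are not all reads sequenced, numbered 7850497 to 20301506 per library. The most were in siCtrl on day 2. The Klf5 level was 224, 381, 614 and 933 on days 0, 1, 2 and 3 in siCtrl and 35.1, 159.6, 192 and 211 in siKlf5. The knockdown was thus seen on all 4 days, with log2 ratios of -2.67, -1.25, -1.68 and -2.14. Summed levels of the 8 myoblast and myotube markers in the table lay between 2749 and 14729. The endothelial (4 genes) and cartilage (4 genes) sums were at most 5.36 and 6.09, and the macrophage and leukocyte sum (7 genes) was 66.7 to 121, most of it Cd14 and Lyz2, with Ptprc at 0.707 or less. Of the 4 epithelial markers Epcam and Krt18 were at 0, while Cdh1 was 38.1 in siCtrl and 14.9 in siKlf5 on day 3. What part other cells had in the results was not tested. In bulk RNA, fewer cells of a type and less RNA per cell cannot be told apart.

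Of the 46 members, 29 had a mean level of at least 1 over the 8 libraries (13 Mmps, 12 Adamts genes and all 4 Timps), as did 14312 transcripts in all. Means of at least 10 were found for 19 members and of at least 100 for 10. Another 17 were under 1, with no value above 1.89, and of these Mmp21, Adamts18, Mmp1a and Mmp7 had no read in any library. The others under 1 were Mmp8, Mmp13, Adamts17, Adamts9, Mmp12, Mmp1b, Mmp20, Adamts20, Adamts3, Mmp27, Adamts13, Adamts19 and Mmp25, with at most 18 reads in a library. All 4 genes grouped here as interstitial collagenases (Mmp1a, Mmp1b, Mmp8 and Mmp13), the class that opens the collagen triple helix, were thus at or near the limit of detection.

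The family was led by its inhibitors. Timps held 47.5% to 55.7% of the summed level of the 46 members, Mmps 27.0% to 35.5% and Adamts genes 13.2% to 24.6%. The summed level of all members rose from 3886 on day 0 to 6550.4 on day 3 in siCtrl and from 3443 to 6170.0 in siKlf5. The 5 highest members made up 68.4% to 80.2% of each library's sum.

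**Figure D1:**
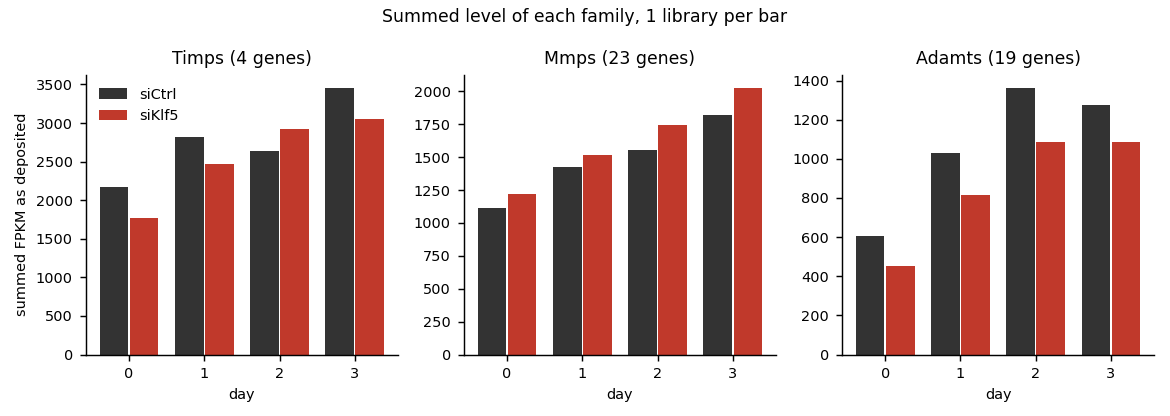
Summed FPKM (vertical axes, as deposited) of the Timps, Mmps and Adamts genes against day in differentiation medium, with 1 bar for each siCtrl and siKlf5 library. Each family's sum was higher on day 3 than on day 0 in both series, and the Adamts sum was lower in siKlf5 on every day, at 1088 against 1275 on day 3. Adamts14 alone was at 290.2 against 510.5 on day 3, a wider gap than that of the sum. The other Adamts genes together were thus not lower in siKlf5 on that day.

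Timp2, the inhibitor that with Mmp14 activates pro-Mmp2, was the highest member (chr11:118162375-118216725, minus strand, mm9). Its level in siCtrl was 1154, 1503, 1653 and 2418 on days 0 to 3, and in siKlf5 it was 924, 1428, 1759 and 1953. It climbed on each day in both series. The fit described with the differentiation results gave a day 3 minus day 0 difference of 1.07 (SE 0.13) on the log2 scale, with an adjusted p of 0.00084 in limma. Timp2 had 1.65 to 5.55 reads per base of exon, more than any other member. The authors kept at most 3 reads per position, and what this did to its level was not tested.

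Timp1, the soluble inhibitor induced in many injured tissues, stayed within a narrow band. Its levels were 728, 983, 724 and 757 in siCtrl and 653, 809, 921 and 824 in siKlf5. Neither series moved past 2-fold, and the siRNA ratio changed sign between day 1 (-0.28) and day 2 (0.35). Timp1 lies inside Syn1 in the annotation, Timp3 inside Syn3 and Timp4 inside Syn2. Since both strands were counted, reads from a gene and its opposite-strand neighbour cannot be told apart. Only Timp3 of these shares exon bases with its neighbour, 1733 of them.

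Timp3, which is held in the matrix and inhibits Adamts4 and Adamts5 as well as Mmps, had levels of 283, 330.0, 253 and 279 in siCtrl and 188, 227, 240.4 and 272 in siKlf5. The siKlf5 library was lower on all 4 days as deposited, past 1.5-fold on day 0 with a log2 ratio of -0.59 (95% counting interval -0.82 to -0.37). By day 3 the ratio was -0.04 (-0.25 to 0.16). With upper-quartile scaling the day 0 ratio, at -0.58, was short of 1.5-fold and the day 3 ratio turned to 0.01, and with either scaling the day 1 ratio, at -0.61, passed 1.5-fold. Timp4 was near the limit of detection, with no read in any library of days 0 and 1. On days 2 and 3 it had 13 and 7 reads in siCtrl and 3 and 15 in siKlf5.

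Mmp14, the membrane-bound collagenase MT1-MMP, was the highest protease (chr14:55050441-55060095, plus strand). Its levels were 655, 812, 619.5 and 854 in siCtrl and 738, 840.0, 799 and 960.0 in siKlf5. It was above siCtrl on all 4 days as deposited, by log2 ratios between 0.05 and 0.37, none of which reached 1.5-fold. With median-ratio or upper-quartile scaling its day 1 ratio became -0.01. Mmp14 alone held 39.9% to 60.4% of the summed Mmp level.

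Mmp2, the gelatinase that Mmp14 and Timp2 activate at the cell surface (chr8:95351227-95377319, plus strand), rose steeply. In siCtrl its level was 79.1, 152, 265 and 316 on days 0 to 3. In siKlf5 the values were 93.1, 245, 321 and 389, above siCtrl on every day. The log2 ratio was 0.24 (-0.23 to 0.69), 0.69 (0.33 to 1.08), 0.28 (0.06 to 0.48) and 0.30 (0.07 to 0.51) on days 0 to 3, past 1.5-fold on day 1 only. The level of Mmp2 relative to Mmp14 went from 0.121 on day 0 to 0.370 on day 3 in siCtrl and from 0.126 to 0.405 in siKlf5. Mmp9, the other gelatinase, had at most 12 reads in any library and a mean of 1.08.

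Mmp15, a membrane-anchored relative of Mmp14, gave the clearest rise among the Mmps. Its levels were 23.2, 113, 204 and 249.7 in siCtrl and 24.2, 104, 221 and 250.035 in siKlf5. The courses of both series nearly coincided, with ratios from -0.13 to 0.11 and a day 3 ratio of 0.00 (-0.23 to 0.22). Mmp24 had levels of 14.0 to 20.4 without a steady course, and 637 bases of its exons overlap BC029722 on the other strand. Mmp16 was lower, at 0.891, 3.93, 5.41 and 4.81 in siCtrl and 0, 4.27, 8.34 and 9.30 in siKlf5. In siKlf5 it went from no read on day 0 to 76 reads on day 3, a log2 change whose counting interval begins at 1.60. Mmp17, which is tethered by a lipid anchor, was at 0.292, 0, 0.856 and 0 in siCtrl and at 1.93, 3.02, 2.37 and 0.963 in siKlf5. It was higher in siKlf5 on all 4 days, on no more than 16 reads in any library, and the counting interval of every day holds 0. On days 1 and 3 siCtrl had no read.

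Mmp11, the stromelysin that stromal cells secrete in active form, held steady at 259.7, 190.0, 311 and 273 in siCtrl and 257, 217, 263 and 298 in siKlf5. Mmp28 was 34.2, 61.1, 42.3 and 31.3 in siCtrl and 38.9, 23.2, 41.7 and 34.1 in siKlf5. Its day 1 libraries stood apart from the other days, with a ratio of -1.39 (-2.50 to -0.37), and the ratios of the other days were between -0.02 and 0.18. Mmp19 had levels of 37.5, 53.3, 61.7 and 51.6 in siCtrl and 24.3, 49.2, 58.8 and 52.5 in siKlf5. It was past 1.5-fold lower on day 0, at -0.62 (-1.43 to 0.13), an interval that holds 0. Of its exons 789 bases overlap 1110012D08Rik on the other strand. Mmp23 had levels between 2.14 and 10.5 on 6 to 46 reads.

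The stromelysins Mmp3 and Mmp10 were the only members of the Mmp cluster on chromosome 9 with a mean of at least 1. Mmp10 fell, from 6.79 and 9.51 on days 0 and 1 to 1.04 and 0 on days 2 and 3 in siCtrl, and from 14.3 through 2.61 and 1.79 to 0.973 in siKlf5. In siCtrl this is a step from 23 reads on day 0 to no read on day 3, with a counting interval that holds 0. Mmp3 was 1.71, 3.49, 7.83 and 7.91 in siCtrl and 0, 5.87, 0 and 3.75 in siKlf5, on at most 47 reads. No read supported it in 2 of the 4 siKlf5 libraries. On day 2 the 47 reads of siCtrl stood against none in siKlf5, with a counting interval that reaches 0.05.

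Adamts14, which trims the amino-terminal propeptide from procollagens (chr10:60659860-60736186, minus strand), was, among the 19 members with means of 10 or more, the only one past 1.5-fold on all 4 days. In siCtrl its level was 159, 320.3, 489.9 and 510.5 on days 0 to 3. In siKlf5 it was 97.1, 185, 244 and 290.2, lower on every day. The log2 ratios were -0.71 (-1.01 to -0.42), -0.79 (-1.04 to -0.53), -1.01 (-1.18 to -0.85) and -0.81 (-0.99 to -0.66). Both series climbed from day to day, by a log2 change of 1.69 from day 0 to day 3 in siCtrl and of 1.58 in siKlf5. Adamts14 was 26.3% to 40.04% of the summed Adamts level in siCtrl and 21.4% to 26.7% in siKlf5.

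Adamts2, the other main procollagen N-propeptidase, went the other way between the siRNAs from day 1 on. Its levels were 8.35, 21.8, 49.5 and 50.4 in siCtrl and 6.08, 37.2, 71.7 and 70.7 in siKlf5. The ratio was -0.45 on day 0 (-1.85 to 0.84) and 0.77 (0.02 to 1.58), 0.54 (0.16 to 0.89) and 0.49 (0.06 to 0.91) on days 1 to 3, past 1.5-fold on day 1 and, with upper-quartile scaling (0.60), on day 2. Adamts3, the last of this group, had at most 7 reads.

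Of the proteoglycan-cleaving Adamts genes, Adamts4, Adamts5 and Adamts15 rose with differentiation in the test given with the differentiation results, while Adamts1 and Adamts8 did not pass it and Adamts9 and Adamts20 were under a mean of 1. Adamts4, an aggrecanase, was 96.3, 204, 250.3 and 225 in siCtrl and 71.0, 131, 205 and 194 in siKlf5, lower on all 4 days and past 1.5-fold on day 1 (-0.63, -0.99 to -0.26). Adamts5, the other main aggrecanase (chr16:85858402-85901370, minus strand), was 6.53, 35.4, 51.8 and 31.5 in siCtrl and 9.12, 48.0, 77.3 and 74.9 in siKlf5. It was higher in siKlf5 on all 4 days and past 1.5-fold on day 3, at 1.25 (0.87 to 1.63). Its day 2 ratio of 0.58 (0.29 to 0.85) fell just short of 1.5-fold as deposited and passed it with median-ratio (0.62) and upper-quartile scaling (0.64). In siCtrl its day 3 value was below that of day 2, whereas in siKlf5 the values of these days were near each other.

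Adamts1, a versicanase whose gene lies 55.0 kb from Adamts5, had levels of 53.8, 79.7, 68.5 and 54.5 in siCtrl and 40.4, 61.4, 111 and 98.6 in siKlf5. The siKlf5 library was the lower one on days 0 and 1, at -0.41 (-0.93 to 0.07) and -0.38 (-0.86 to 0.11), and the higher one on days 2 and 3, at 0.69 (0.38 to 0.99) and 0.85 (0.46 to 1.24). Whether the siRNA difference itself changed between days was not tested. Adamts15, also a versicanase, climbed from 1.03 through 14.6 and 26.0 to 35.3 in siCtrl and from 1.51 through 7.855 and 18.7 to 30.8 in siKlf5. On day 0 these values rest on 12 and 16 reads. The day 1 ratio of Adamts15 was past 1.5-fold, at -0.89 (-2.14 to 0.28), an interval that holds 0. Adamts8, which lies 20.1 kb from Adamts15, had no read before day 2 in either series and 10 to 23 reads after.

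Adamts7, which cuts the cartilage protein Comp, was 163, 222, 290.2 and 255 in siCtrl and 145, 218, 227 and 214 in siKlf5, lower on all 4 days by 0.02 to 0.35 on the log2 scale, never past 1.5-fold. Adamts12, its nearest relative, was 2.13, 6.41, 6.04 and 4.09 in siCtrl and 0.721, 2.42, 3.81 and 6.84 in siKlf5. It was lower in siKlf5 on days 0 to 2 and higher on day 3, on 8 to 126 reads. Adamts6 and Adamts10, a related pair tied to fibrillin microfibrils, stayed under 1.5-fold throughout. Adamts6 lay between 38.4 and 74.7 and Adamts10 between 44.5 and 68.4. Adamts16 was 0.616, 0.946, 4.03 and 7.69 in siCtrl and 0.791, 3.03, 2.60 and 5.30 in siKlf5.

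**Figure D2:**
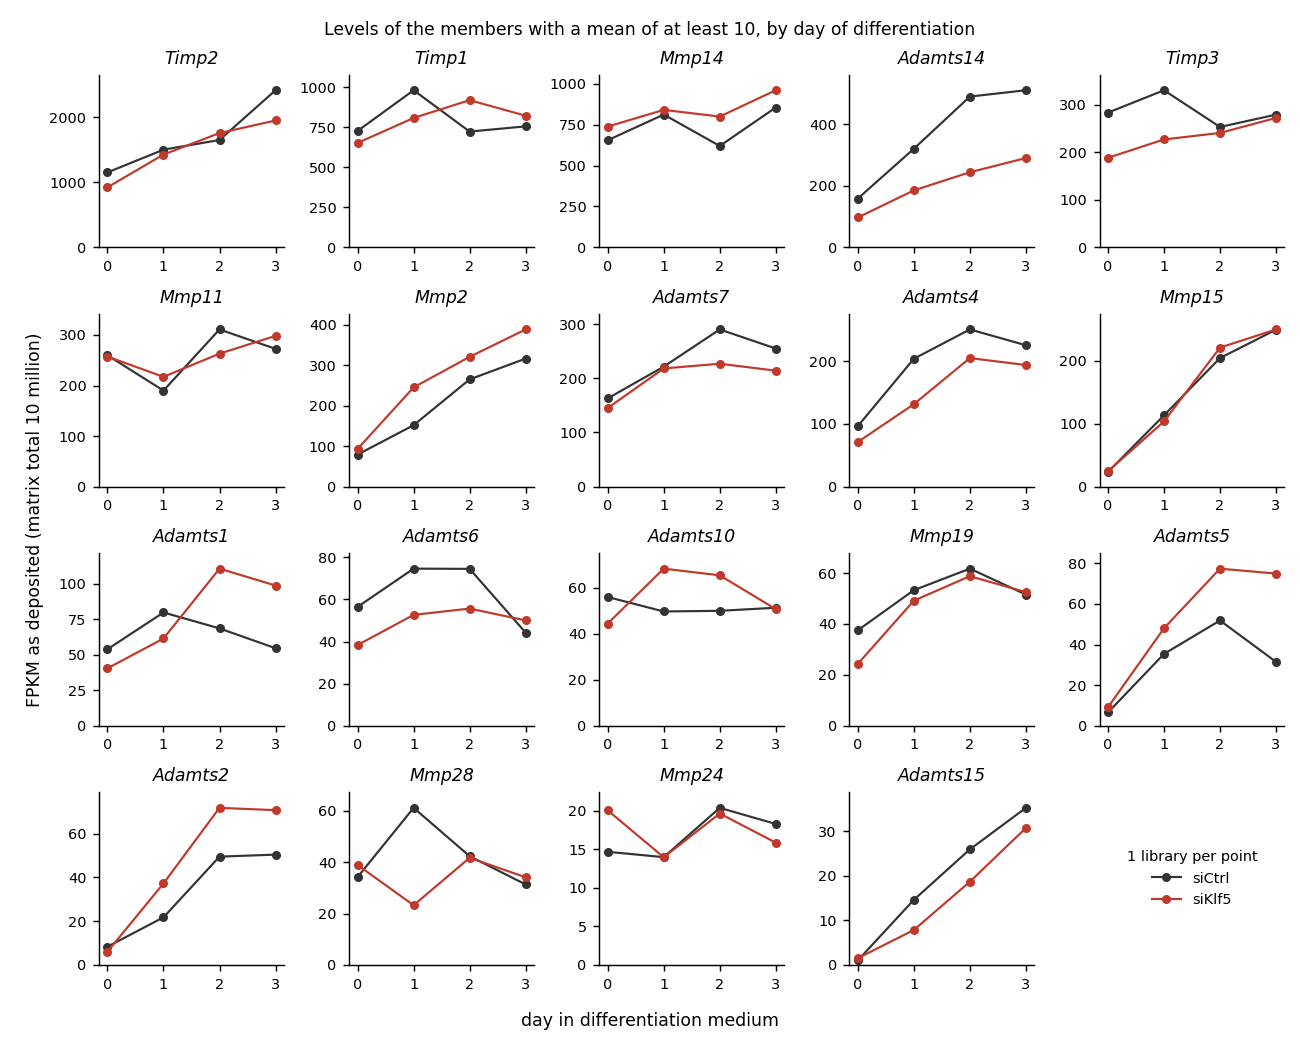
FPKM as deposited (vertical axes, each from 0) against day in differentiation medium for the 19 members with a mean of at least 10, with 1 library per point, black for siCtrl and red for siKlf5. Adamts14 is lower in siKlf5 at each day, Mmp2 and Adamts5 are higher, and the Mmp15 lines run together.

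The first question was how the family moves as the cells differentiate. In siCtrl 14 of the 29 members with a mean of at least 1 were at least 2-fold higher on day 3 than on day 0 (15.5% of all 14312 transcripts were), and 2 were lower (12.7% of all). In siKlf5 16 were higher (14.9% of all) and 1 was lower (12.4% of all). The median log2 change of the members was 0.91 in siCtrl and 1.11 in siKlf5, beside -0.07 and -0.08 over all transcripts. Counts of this kind were made with a pseudocount of 0.1 and carry no test. The pseudocount understates changes of low genes that have reads in both libraries. Where a library had no read, it sets the size of the change and can overstate it. Timp4 in siCtrl, from 0 to 7 reads, came out at 25.2-fold, and at least 2.24-fold with day 0 set at 3 reads.

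The series share no library, and 13 members were higher past 2-fold in both (9.47% of all transcripts). They were Timp2, Timp4, Mmp2, Mmp3, Mmp15, Mmp16, Adamts2, Adamts4, Adamts5, Adamts8, Adamts14, Adamts15 and Adamts16. Of these, Timp4 and Adamts8 had no read on day 0 in either series, and Mmp16 and Adamts16 were under 1 on that day. They passed the filter through later days, and Timp4 and Adamts8 could only rise. The counts of each series above hold these members too, and the shares of all transcripts were taken with the same filter. Mmp10 was the 1 member lower in both (6.85% of all). Adamts1, Adamts12 and Mmp19 were higher past 2-fold in siKlf5 and not in siCtrl (Adamts12 passed it there too with median-ratio scaling, at 1.01). Mmp23 was higher past 2-fold in siCtrl only, from 6 reads to 23. Mmp17 was lower past 2-fold in siCtrl only, from 2 reads to none, so the pseudocount sets the size of that change. It is among the members counted lower in siCtrl above. These differences between the series were not tested.

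**Figure D3:**
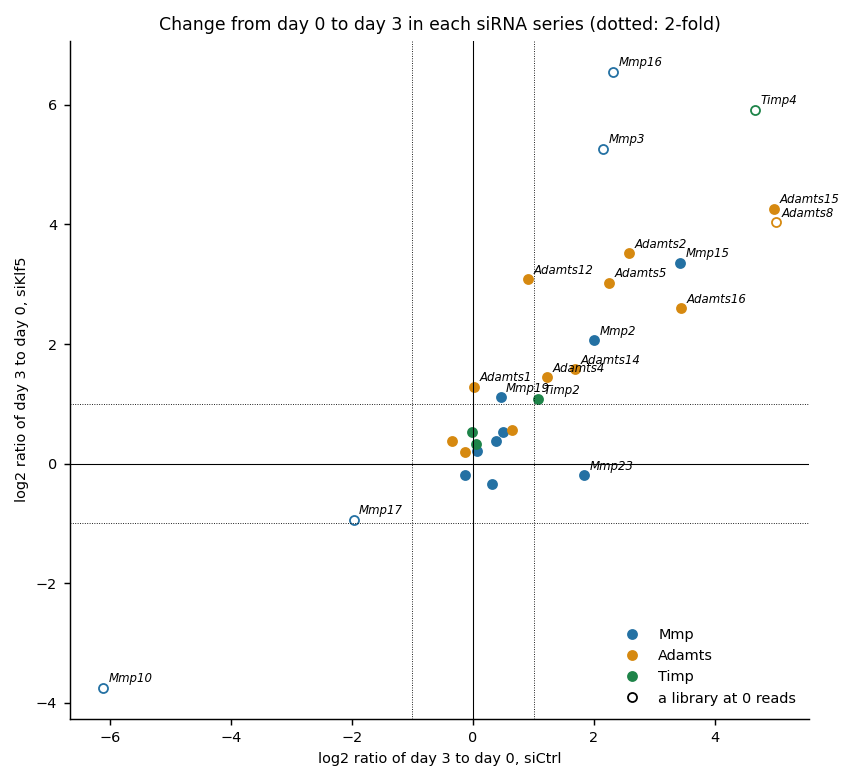
Log2 ratio of day 3 to day 0 in siKlf5 (vertical) against siCtrl (horizontal) for the 29 members with a mean of at least 1, coloured by family, with dotted lines at 2-fold. Open symbols have a library without reads, so their place depends on the pseudocount. Mmp15, Adamts2 and Adamts15 lie at the upper right and Mmp10 at the lower left.

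A test of change shared by both series was made with limma on log2(FPKM + 0.1), with day and siRNA as terms and the siRNA series standing in for replicates. It called 12 members higher on day 3 (12.8% of all transcripts) and 1 lower (17.6% of all), at an adjusted p under 0.05. With median-ratio scaling, which raises the median day 3 to day 0 ratio by 0.11 in siCtrl and 0.12 in siKlf5 on the log2 scale, the shares over all transcripts became 15.2% higher and 12.8% lower. With upper-quartile scaling they were 14.7% and 13.5%, and with both the member counts stayed at 12 and 1. Mmp15 had the smallest adjusted p, 4.13e-06 in limma, with a difference of 3.39 (SE 0.14). Adamts15 rose by 4.61 (SE 0.54), Adamts2 by 3.05 (SE 0.36), Adamts5 by 2.64 (SE 0.31) and Mmp2 by 2.03 (SE 0.14). Adamts14, at 1.63 (SE 0.11), Adamts4, at 1.34 (SE 0.14), and Timp2 followed. These 8 calls held under every alternative fit that was run.

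The other 5 calls depended on how the fit was made. Adamts7 (0.60, SE 0.12) had an adjusted p of 0.0077 in limma, and 0.0507 without a trend of the variance over level. Mmp14 (0.38, SE 0.11) went from an adjusted p of 0.0326 in limma to 0.111 with no filter on low values and 0.115 without the trend. Mmp19 (0.78, SE 0.24), Mmp16 and Mmp10 were at 0.043, 0.0277 and 0.0266 in limma and passed the threshold neither without the trend, without the filter, nor without day 2 in the fit. Without day 1, Mmp19 and Mmp16 did not pass either. The fitted sizes for Mmp16 and Mmp10 depend on the pseudocount, since each has a library without reads.

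The second question was what Klf5 knockdown does to the family. On day 0, 3 of the 29 members were past 1.5-fold higher in siKlf5 (9.22% of all transcripts) and 7 lower (11.1% of all). On day 1 the counts were 5 higher (16.4% of all) and 7 lower (11.0% of all). On day 2 they were 5 (7.69% of all) and 5 (13.0% of all), and on day 3 7 (10.7% of all) and 4 (12.5% of all). The median log2 ratio of the members was -0.16, -0.02, -0.02 and 0.06 on days 0 to 3, beside 0.00, 0.03, -0.03 and 0 over all transcripts. The family as a whole thus lay near 0 on each day, with single members on either side.

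Many of these calls rest on few reads. The filter takes the mean of all 8 libraries, so a member near 1 can pass it through 1 siRNA. Mmp17, counted higher on each day, passed only through siKlf5, as no siCtrl value was above 0.856. Of the members with a mean of at least 10, those past 1.5-fold were Adamts14, Timp3 and Mmp19 on day 0, all lower. On day 1 they were Adamts14, Adamts4, Adamts15 and Mmp28, which were lower, and Mmp2 and Adamts2, which were higher. On day 2 they were Adamts14, lower, and Adamts1, higher. On day 3 they were Adamts14, lower, and Adamts1 and Adamts5, higher. These lists are for the deposited scaling, and other scalings moved Timp3, Adamts5 and Adamts2 across the cutoff as given above. The counting intervals of Mmp19 on day 0 and of Adamts15 on day 1 hold 0.

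**Figure D4:**
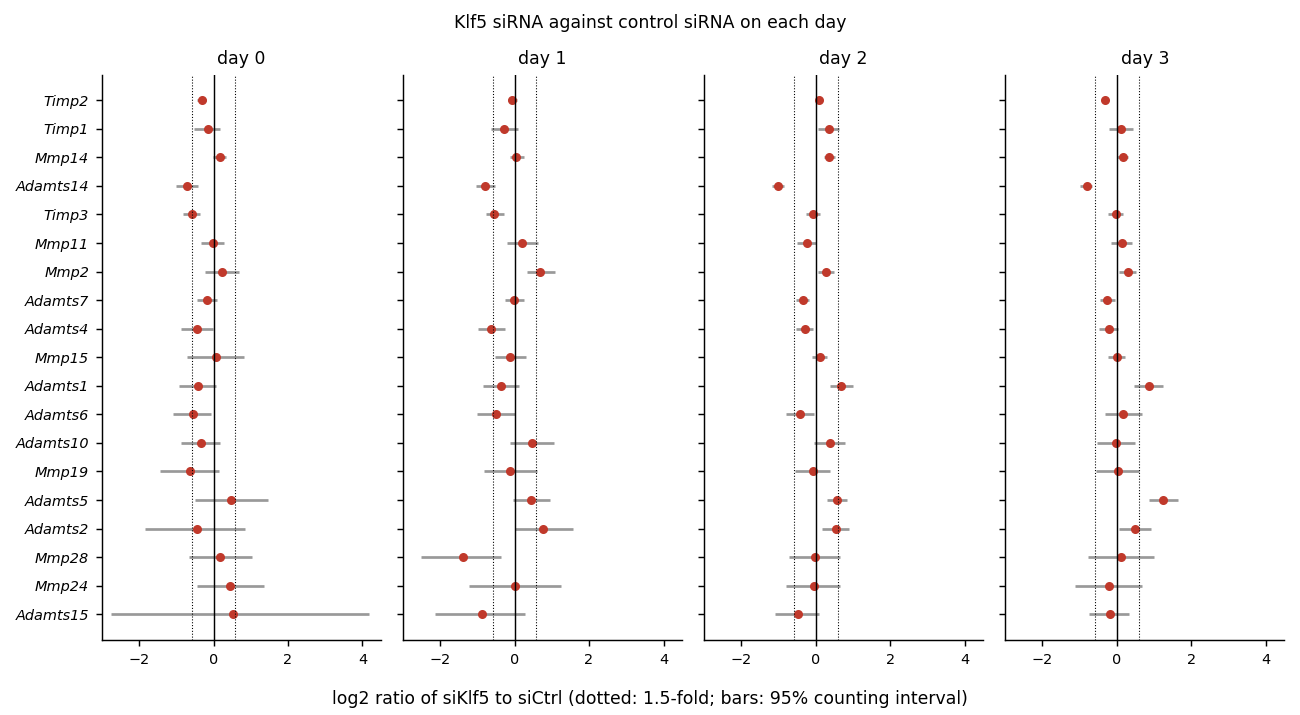
Log2 ratio of siKlf5 to siCtrl (horizontal) on each day for the 19 members with a mean of at least 10, in order of mean level, with dotted lines at 1.5-fold. Grey bars are 95% intervals for counting error only, computed in units of 6 reads. Adamts14 lies between -0.71 and -1.01 on all 4 days, and Adamts1 crosses from below 0 to above it between days 1 and 2.

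Adamts5, Mmp14, Mmp17 and Mmp2 were above siCtrl on all 4 days (4 of 29, beside 9.05% of all transcripts), and Adamts14, Adamts4, Adamts7 and Timp3 were below it on all 4 (4 of 29, beside 9.03%), at the deposited scaling. Mmp14 left the first set with either other scaling, and Timp3 left the second with upper-quartile scaling. Mmp17, with a mean of 1.18, passed the filter only through siKlf5, so the values that let it in also put it in the first set. The limma fit with the 4 days standing in for replicates called 1 member lower in siKlf5, Adamts14 (0.0559% of all transcripts were called lower), and 0 higher (0.00699% of all). The Adamts14 difference was -0.83 (SE 0.08), with an adjusted p of 0.0185 in limma. At an unadjusted p under 0.05 the fit held 8 of the 29 members and 9.6% of all transcripts.

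The Adamts14 call is not firm, although its sign was the same in all 4 library pairs. Its adjusted p in limma became 0.489 with no filter on low values and 0.52 without the trend. With both libraries of a day left out it was 0.274 (day 0), 0.301 (day 1), 0.681 (day 2) and 0.693 (day 3), and in none of these 6 fits was any transcript called. The difference itself stayed between -0.77 and -0.87. For Mmp2 (0.37, SE 0.10), Adamts4 (-0.40, SE 0.10) and Adamts5 (0.69, SE 0.22) the adjusted p in limma was 0.319, 0.295 and 0.39.

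Adamts14, Adamts5 and Mmp2 are the members at mean levels of at least 10 that lay on 1 side of siCtrl on all days and passed 1.5-fold on at least 1, together with Adamts4 and Timp3, and the sequences of Adamts14 and Mmp2, lower and higher in siKlf5 respectively, are shown for their contrast. Klf proteins bind CACCC boxes and GC-rich letters, so the 250 bases before each start were searched on both strands for CACCC and for CCGCCC, without overlapping matches of 1 motif. The bases are from the mm9 genome, 5' to 3' along the gene, and capitals mark matches on either strand.
Adamts14 (chr10:60736187-60736436, minus strand): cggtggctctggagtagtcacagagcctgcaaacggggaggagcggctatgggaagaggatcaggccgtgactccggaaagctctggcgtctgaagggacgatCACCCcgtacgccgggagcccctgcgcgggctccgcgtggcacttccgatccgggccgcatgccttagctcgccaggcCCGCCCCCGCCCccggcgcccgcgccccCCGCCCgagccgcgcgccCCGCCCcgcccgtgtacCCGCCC
Mmp2 (chr8:95350977-95351226, plus strand): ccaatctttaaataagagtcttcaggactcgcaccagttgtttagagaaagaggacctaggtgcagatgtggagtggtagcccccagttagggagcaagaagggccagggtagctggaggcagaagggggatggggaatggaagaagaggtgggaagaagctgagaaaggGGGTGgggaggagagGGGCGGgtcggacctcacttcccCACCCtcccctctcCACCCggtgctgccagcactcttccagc
The Adamts14 window holds CCGCCC 5 times and CACCC once, and that of Mmp2 holds CACCC 3 times and CCGCCC once. G and C made up 74.8% of the Adamts14 window and 58.4% of the Mmp2 window, beside a median of 55.2% over all starts. At a mean level of at least 1 the median was 59.6% over 14312 transcripts and 64.4% over 29 members. Timp3, lower in siKlf5 on all days as deposited, had the same counts as Mmp2. Adamts2, higher on days 1 to 3, held CCGCCC 5 times and no CACCC, so this pair does not stand for the other members. CACCC was found before 69.6% of the 46 members and 52.6% of all 23953 starts that could be read, and CCGCCC before 45.7% and 41.6%. At a mean level of at least 1, CACCC was before 72.4% of 29 members and 56.2% of 14312 transcripts. CCGCCC was before 55.2% and 56.5% of these. The MyoD E-box letters CAGCTG were before 13.0% of the 46 members and 12.4% of all starts. A match is a stretch of letters and not a binding site.

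The position of the members in the genome went with their level. A stretch of 426.9 kb of chromosome 9 (chr9:7272514-7699416) holds 10 Mmps, namely Mmp13, Mmp12, Mmp1b, Mmp3, Mmp1a, Mmp10, Mmp8, Mmp27, Mmp20 and Mmp7. Of these, 2 had a mean of at least 1, against 27 of the 36 members elsewhere. No cluster gene had a level above 14.3 in any library.

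The same genes stood out by the letters TGANTCA, where N is any base. These letters take in TGAGTCA and TGACTCA, the AP-1 motif known from collagenase and stromelysin promoters. A match was found within 250 bases before the start of 10 of the 46 members (21.7%), beside 6.17% of all starts. Of the 10, 8 were among the 10 cluster genes and the others were Mmp9 and Mmp19. The match of Mmp20, a cluster gene, reads TGAATCA and is thus of the wider pattern only. Windows of 40 bases around the match are shown for 5 of these genes, with the motif in capitals. They are the cluster's expressed genes Mmp10 and Mmp3, the collagenase Mmp13 and both genes outside the cluster.
Mmp19 (chr10:128227917-128227956, plus strand): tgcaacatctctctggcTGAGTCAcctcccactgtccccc
Mmp10 (chr9:7502262-7502301, plus strand): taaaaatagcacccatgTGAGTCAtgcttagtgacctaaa
Mmp3 (chr9:7445759-7445798, plus strand): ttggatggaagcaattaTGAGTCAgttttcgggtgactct
Mmp9 (chr2:164773633-164773672, plus strand): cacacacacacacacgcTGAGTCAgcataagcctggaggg
Mmp13 (chr9:7272462-7272501, plus strand): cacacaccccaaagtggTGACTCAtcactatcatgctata
The motif begins 63 and 46 bases before the starts of Mmp10 and Mmp3, 35 before Mmp13, 69 before Mmp9 and 32 before Mmp19. Of these genes only Mmp19 had a mean of at least 10, at 48.6.

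Other genes of the same pathway were read from lists of activators and regulators, related proteases, Adamts-like proteins and substrates. Counts of calls on day 3 in these lists stand beside 12.8% of all transcripts called higher and 17.6% called lower. Among the activators and regulators, limma called Plaur, the receptor for urokinase, lower on day 3, by a log2 difference of -2.39 (SE 0.20). Plat, a plasminogen activator, was called higher, by 0.74 (SE 0.24). The highest of this list were Bsg, an inducer of Mmps, at 1041 to 1736, Cd44, a hyaluronan receptor that docks Mmps, at 764 to 1811, and Plau, the urokinase, at 430.3 to 1013.

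Among 13 related proteases Adam19 was called higher and Ctsb and Adam8 lower on day 3. Ctsl, Ctsb and Bmp1, the procollagen C-proteinase, had the highest means, at 1598, 732 and 636. Adam8 was past 1.5-fold lower in siKlf5 on days 1, 2 and 3, at 124 against 232, at 60.2 against 110.0 and at 30.6 against 139. Of 6 Adamts-like genes, which encode matrix proteins without a protease domain, 4 were called higher, Adamtsl5, Adamtsl1, Adamtsl3 and Adamtsl2. Adamtsl5 went from 349 to 643 in siCtrl and from 281 to 355 in siKlf5. Adamtsl4 had levels of 7.14 to 59.1 and Adamtsl1 of 1.43 to 50.9. Adamtsl2, with a mean of 9.41, was past 1.5-fold lower in siKlf5 on all 4 days, with counting intervals that hold 0 on days 0 and 1. On day 3 it was at 3.99 against 32.7, a log2 ratio of -3.01 (-5.05 to -1.54).

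Of 10 substrates, limma called 6 higher on day 3, Fn1, Col3a1, Bgn, Col1a1, Dcn and Fbn1, and Col4a2 lower. Col3a1, Fn1 and Col1a2 had the highest means, at 2183, 1767 and 1528. Col4a2, a basement membrane collagen chain, was past 1.5-fold higher in siKlf5 on days 1, 2 and 3. It was at 339 against 219, at 401 against 257 and at 387 against 257. No gene of these 4 lists was called for siRNA by limma.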

How the data were processed

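The authors aligned paired-end poly(A) reads to mm9 with STAR, counted exons of 1 RefSeq transcript per gene with HOMER on both strands with at most 3 reads per position, and deposited FPKM values with a library constant of 10000000. The table also has 8 log2 columns, which were not used. Reads were recovered from FPKM and length: all checked values were whole within 0.1. Counting intervals are exact Clopper-Pearson 95% intervals on reads divided by 6, because reads came in groups, and cover counting error only. Calls were past 1.5-fold (siRNA) or at least 2-fold (day 3 to day 0), without a test, at a pseudocount of 0.1 and a mean of at least 1. The limma 3.58.1 fit (R 4.3.3) had 3 residual degrees of freedom, an empirical Bayes trend and Benjamini-Hochberg adjustment over 14312 transcripts, and was tested on simulated data. Days or siRNA series stood in for replicates, so p-values measure the spread between these libraries. Alternatives were other pseudocounts, filters, scalings, cutoffs, fits without a day or without the trend, and single-read intervals. Timps and members with a mean of at least 10 were picked for full values. So were those from 1 to 10 past 1.5-fold in 1 direction on at least 2 days or past 2-fold in both series. Of these, Mmp24, Adamts6 and Adamts10 are given by their range, and Timp4, Mmp9 and Adamts8 by reads. In each pathway list the 3 highest genes, and those with a mean of at least 10 past 1.5-fold in 1 direction on days 2 and 3, were named. Those called by limma were added after their values were seen. Members and lists were chosen with earlier results of these data known. A gene of a pathway list and an upstream window are not reported here. Windows before starts were read from NCBIM37 (mm9), and overlaps from GENCODE vM1. Other software was matplotlib 3.10.9, scipy 1.17.1, pandas 2.3.3 and numpy 2.4.6 under Python 3.11.15.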

Additional observations from a re-analysis of the deposited data

Results flagged for a closer look

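Some members were past 1.5-fold in opposite directions between siKlf5 and siCtrl on different days. In no case was the difference between days tested, and each gene had a mean under 10. The values are log2 ratios with the pseudocount, and where a library had no read the ratio has no fixed size. Mmp10 had 1.06, -1.82, 0.73 and 3.42 in day order, and on the last day siCtrl had no read and siKlf5 had 3. Mmp3 had -4.17 and -6.31 on days 0 and 2, when siKlf5 had no read, 0.73 on day 1 and -1.06 on day 3. Mmp16 had -3.31 on day 0, when siKlf5 had no read, then 0.61 and 0.94 on days 2 and 3. Adamts12 had -1.44, -1.37 and -0.65 on days 0 to 2 and 0.73 on day 3. Adamts16 had 1.58 on day 1 and -0.61 on day 2, the latter short of 1.5-fold with median-ratio (-0.57) and upper-quartile scaling (-0.55). On days 2 and 3 Timp4 had -1.25 and 1.26 and Adamts8 had 0.91 and -0.96. Read counts per library were at most 44 for Mmp10, 47 for Mmp3, 83 for Mmp16, 126 for Adamts12, 78 for Adamts16, 15 for Timp4 and 23 for Adamts8.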

How the results depend on the processing

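No ratio past its cutoff changed sign under any alternative. Ratios near 0 did so under scaling: with both scalings Mmp14 on day 1 (-0.01), Mmp28 on day 2 (0.02 and 0.04) and Timp3 from day 0 to day 3 in siCtrl (0.09 and 0.05), and with upper-quartile scaling Mmp24 on day 2 (0.01) and Timp3 (0.01) and Adamts10 (0.03) on day 3. Counts of members past 1.5-fold between the siRNAs moved with the filter and cutoff. With no filter (46 members) 11 were lower on day 0, 8 higher and 11 lower on day 1, 9 higher on day 2, and 8 lower on day 3. A minimum mean of 5 (20 members) left 1, 2, 1 and 2 higher and 3, 4, 1 and 1 lower in day order. A 2-fold cutoff left 3 lower on day 0, then 2, 1 and 4 higher and 4, 3 and 1 lower on the later days. A pseudocount of 1 left 3 higher and 3 lower on day 2. From day 0 to day 3, a mean of at least 5 left 9 (siCtrl) and 10 (siKlf5) higher and 0 lower in each. A pseudocount of 1 left 1 lower and no filter gave 5 lower in siCtrl, and a 1.5-fold cutoff gave 2 lower in siKlf5. For siRNA limma called 0 members lower with no filter, without the trend and without day 0, 1, 2 or 3. For day 3 it called 0 lower with no filter, with a mean of at least 5, without the trend and without day 2, where Mmp10 was lost or not tested. Adamts8 was called higher with no filter (adjusted p = 0.0439 in limma), without the trend (0.0135) and without day 1 (0.0387). Timp4 was called without the trend, without day 1 and without day 2, and Adamts16 without the trend and without day 1. Where the cause of a move is not the number of genes or libraries tested, the cause was not tested. Intervals of the 28 members picked for full values left out 0 in 30 of 108 siRNA ratios, and in 72 when reads were taken singly. Depth limits the 10 members with a mean from 1 to 10, which had at most 126 reads in a library.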
